A study of Mus musculus with 16 samples.

Results

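Cytochrome P450 family 2 (the Cyp2 genes) was described here in livers of mice that differed in genotype and diet. Members were all probe rows whose platform symbol was Cyp2 followed by a subfamily letter and a number, leaving out Cyp2c70. These were 49 of the 25697 rows and named 35 genes. The row of highest mean stood for a gene with more than 1 row, and the gene counted as detected when that mean lay above the median of all row means (6.246 on the authors' log2 scale). By this rule 25 Cyp2 genes were detected, among 7789 genes tested in all.

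The 16 animals were male C57BL/6 mice, a CYP7A1 transgenic line and its wild-type littermates, housed singly, with 1 array per liver and 4 animals in each of 4 groups. Per the labels, feeding began at 12 to 14 weeks of age and lasted 4 months, the age at collection was 6 months, and an overnight fast of about 16 h came before the livers were collected. The groups were WT and Tg mice on standard chow and WT and Tg mice on a Western diet that was high in fat (42%) and cholesterol (0.2%). Promoter and species of the transgene were not given in the sources used here. The row for Cyp7a1, the rate-limiting enzyme of bile acid synthesis, ran from 11.30 to 12.26 (log2 signal) in WT chow livers and from 6.46 to 7.85 in Tg chow livers. It ran from 10.02 to 12.40 in WT livers and from 6.24 to 7.35 in Tg livers on the Western diet. A higher level in the Tg group is what the label would give, and this row read lower there on both diets. Whether the row reads the transgene cannot be told from the sources used here, so Tg and WT below mean livers so labelled.

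Family 2 P450 enzymes are heme proteins of the endoplasmic reticulum that oxidise drugs, pollutants, steroids and fatty acids with electrons from P450 reductase. In mouse the Cyp2a, Cyp2b, Cyp2c and Cyp2d genes form tandem clusters of closely related copies, and many are made mainly in hepatocytes. Some respond to the nuclear receptors CAR and PXR, which sense drugs and bile acids, and several differ between male and female liver through the pattern of growth hormone.

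The stretches before the transcription start are shown for the genes on which the results turn, from RefSeq on build GRCm38.p6. Each is the 250 bases upstream of the start on the gene's own strand, and capitals mark letters that match a searched motif. Cyp2a5 carried the largest change, Cyp2b9 and Cyp2b13 are neighbours with a like pattern, Cyp2c37 and Cyp2c50 moved in the same comparisons, and Cyp2c67 had the smallest adjusted p of the members for a genotype effect that differed between diets.
Cyp2a5, chr7:26835089-26835338, plus strand: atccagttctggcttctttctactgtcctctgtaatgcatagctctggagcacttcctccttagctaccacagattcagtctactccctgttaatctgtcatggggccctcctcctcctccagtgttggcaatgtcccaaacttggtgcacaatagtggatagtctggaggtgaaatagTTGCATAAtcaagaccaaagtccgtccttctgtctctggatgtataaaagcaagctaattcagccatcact
Cyp2b9, chr7:26173159-26173408, plus strand: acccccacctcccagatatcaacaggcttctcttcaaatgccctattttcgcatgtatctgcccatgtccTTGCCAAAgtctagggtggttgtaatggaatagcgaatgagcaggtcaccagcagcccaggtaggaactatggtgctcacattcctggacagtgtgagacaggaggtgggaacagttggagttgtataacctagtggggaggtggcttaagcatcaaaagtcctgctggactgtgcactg
Cyp2b13, chr7:26061245-26061494, plus strand: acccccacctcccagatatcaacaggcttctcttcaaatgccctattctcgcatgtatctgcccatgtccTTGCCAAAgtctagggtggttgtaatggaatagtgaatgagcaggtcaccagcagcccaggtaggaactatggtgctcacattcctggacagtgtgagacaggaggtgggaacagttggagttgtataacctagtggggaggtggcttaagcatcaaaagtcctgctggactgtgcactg
Cyp2c37, chr19:39992174-39992423, plus strand: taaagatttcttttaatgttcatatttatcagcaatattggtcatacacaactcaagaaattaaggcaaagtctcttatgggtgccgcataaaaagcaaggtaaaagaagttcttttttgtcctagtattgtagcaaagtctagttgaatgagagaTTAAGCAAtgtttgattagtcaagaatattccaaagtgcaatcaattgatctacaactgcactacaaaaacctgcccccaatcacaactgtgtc
Cyp2c50, chr19:40089429-40089678, plus strand: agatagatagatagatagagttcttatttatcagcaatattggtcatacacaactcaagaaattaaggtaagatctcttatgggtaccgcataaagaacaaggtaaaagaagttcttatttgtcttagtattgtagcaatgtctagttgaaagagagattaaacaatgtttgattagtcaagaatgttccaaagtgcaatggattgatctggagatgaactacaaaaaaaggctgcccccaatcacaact
Cyp2c67, chr19:39649043-39649292, minus strand: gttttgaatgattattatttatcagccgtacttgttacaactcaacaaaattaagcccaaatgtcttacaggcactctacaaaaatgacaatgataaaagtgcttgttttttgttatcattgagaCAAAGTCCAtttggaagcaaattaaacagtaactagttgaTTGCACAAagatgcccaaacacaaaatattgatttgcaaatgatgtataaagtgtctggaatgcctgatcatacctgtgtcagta

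The windows of Cyp2b13 and Cyp2b9 were identical at 248 of 250 aligned bases (99.2%) and differed by C48T and T104C, with the Cyp2b13 base first and positions counted from 1 at the window's 5′ end. Those of Cyp2c37 and Cyp2c50 were identical at 214 of 242 aligned bases (88.4%). The window of Cyp2a4, a Cyp2a copy not analysed here, was identical to that of Cyp2a5 at 245 of 249 aligned bases (98.4%). These identities describe the DNA before the genes, and whether probes of near-identical copies read each other's transcripts was not tested.

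Of the 25 detected members 21 had a RefSeq window, and 3 motifs are given here, each searched on both strands. The C/EBP type motif TTGCNNAA stood in 8 of the 21 (Cyp2a5, Cyp2b10, Cyp2b13, Cyp2b23, Cyp2b9, Cyp2c37, Cyp2c67 and Cyp2j9), and 9.564% of all 32851 RefSeq windows of this length held it. Cyp2b10, Cyp2b13, Cyp2b23 and Cyp2b9 are related copies with like windows (85.3% identity for Cyp2b10 and Cyp2b23). Their matches are therefore not separate cases to set against the 9.564%. In Cyp2a5 the motif lay 71 to 64 bases before the start, and in both Cyp2b9 and Cyp2b13 it lay 180 to 173 bases before it. The HNF4A type motif CAAAGTCCA stood in Cyp2c67, 125 to 117 bases before the start, and in 0.384% of all windows. The direct repeat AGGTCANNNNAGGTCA stood in 0 of the 21 and in 0.015% of all windows. The motifs did not overlap in these windows. A match describes letters and is not evidence of binding.

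Array medians of the scanner signals ran from 70.3 to 86.6, and rank correlations between arrays were 0.931 to 0.953 within groups and 0.918 to 0.942 between groups. The hepatocyte marker transcripts Apoa1, Apoc3, Ttr and Trf read 14.21 to 14.83 in all 16 livers, while the Alb row read 6.29 to 6.98 and the Fgb and Tat rows lay below the filter. Summed signals of the 8 hepatocyte markers on the array ranged from 99380 to 107646. Summed signals of 13 macrophage markers (Cd5l below the filter) ranged from 1478 to 3990 in WT chow, 3724 to 6751 in Tg chow, 6392 to 8886 in WT Western diet and 4011 to 7284 in Tg Western diet livers. Those of 12 stellate and matrix markers (Hand2 below the filter) were 4311 to 6569, 4421 to 5521, 7659 to 8237 and 4969 to 5588 in the same order. All kidney and intestine markers on the array were below the filter. In whole liver, fewer cells of a type and less RNA per cell cannot be told apart, and the part of these other cell types in the Cyp2 results was not tested.

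All subfamilies with a tested member were read by the same fit, in which a gene was called at a Benjamini-Hochberg adjusted p under 0.05 over the 7789 genes (limma, two-sided, errors below as SE). The detected genes were 2 of 2 Cyp2a, 4 of 5 Cyp2b, 7 of 9 Cyp2c, 7 of 8 Cyp2d and 1 of 5 Cyp2j genes, and Cyp2e1, Cyp2f2, Cyp2r1 and Cyp2u1. The 10 genes below the filter were Cyp2b19, Cyp2c40, Cyp2c65, Cyp2d34, Cyp2g1, Cyp2j11, Cyp2j13, Cyp2j5, Cyp2j6 and Cyp2s1. They read 5.66 to 6.42 over all arrays, and 0 of them were called in a limma fit without the filter. Just inside the filter lay Cyp2r1 (mean 6.259) and Cyp2d12 (6.307), and just outside it lay Cyp2s1 (6.185). Because signals level off near background, a fold against a group mean under 6.29 is a lower bound. By group mean, Cyp2d12 lay under 6.29 on chow (6.11 in WT and 6.01 in Tg livers). Cyp2r1 lay under it in WT livers (6.25 on chow and 6.15 on the Western diet). Cyp2c55 lay under it in Tg livers (6.20 on chow and 6.24 on the Western diet). Cyp2c38 and Cyp2c39 lay under it in Tg chow livers (6.24 and 6.22). Cyp2b10 did so in Tg Western diet livers (6.18) and Cyp2u1 in WT Western diet livers (6.19). Each of these genes passed the filter through its other groups, and their calls count among the members called below.

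Tg livers differed from WT livers in 7 of the 25 members on chow (28%), of which 1 was higher and 6 were lower, while 9.96% of all genes tested were called (4.54% higher and 5.42% lower). On the Western diet 12 members differed (48%), 6 higher and 6 lower, against 15.0% of all genes (6.51% higher and 8.49% lower). The Western diet changed 6 members in WT livers (24%), 4 higher and 2 lower, against 18.7% of all genes (10.7% higher and 8.05% lower). In Tg livers it changed 8 members (32%), 6 higher and 2 lower, against 9.72% (5.06% higher and 4.66% lower). In WT livers the members' share was thus the closest to the background, and it fell below it in some runs with other settings or without 1 array. The genotype effect differed between the diets (the interaction) for 3 members (12%), all with a positive difference, against 5.39% of all genes (2.17% positive and 3.22% negative). At an unadjusted p under 0.05 these counts were 10, 18, 12, 14 and 10. The share of all genes at this looser threshold is not given here, so these counts cannot be set against the shares above.

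**Figure D1:**
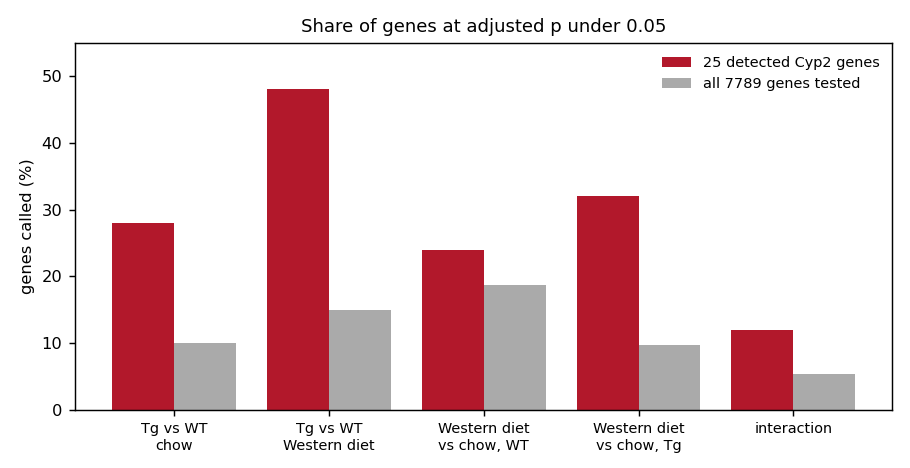
Percent of genes at an adjusted p under 0.05 (vertical axis) in each comparison, for the 25 detected Cyp2 genes (red bars) and all 7789 genes tested (grey bars). The red bar is above the grey one in each comparison, 48% against 15.0% for genotype on the Western diet and 24% against 18.7% for diet in WT livers.

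The median member log2 fold change was -0.10 and 0.06 for genotype on chow and on the Western diet, and -0.07 and 0.20 for diet in WT and in Tg livers. The median over all genes lay between -0.03 and 0.01 in these 4 comparisons. Values of the 2 groups did not overlap for 7, 13, 3 and 12 members in this order, and for 13.5%, 23.0%, 21.8% and 17.0% of all genes. Called in at least 1 of the 4 comparisons were 19 members (34.1% of all genes were), and the 6 others were Cyp2b23, Cyp2c29, Cyp2d22, Cyp2d26, Cyp2e1 and Cyp2f2.

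With arrays scaled by their median in place of quantiles, members called by diet split 4 higher to 4 lower in WT livers and 6 to 1 in Tg livers. All genes called by diet then split 846 to 803 in WT and 331 to 295 in Tg livers. Members called by genotype split 1 higher to 8 lower on chow and 6 to 8 on the Western diet. The same scaling turned the calls over all genes from 354 higher and 422 lower to 183 and 1204 for genotype on chow, and from 507 and 661 to 296 and 1129 on the Western diet. The 2 genotype contrasts rest on separate animals, whereas each diet contrast shares a group with each genotype contrast.

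**Figure D2:**
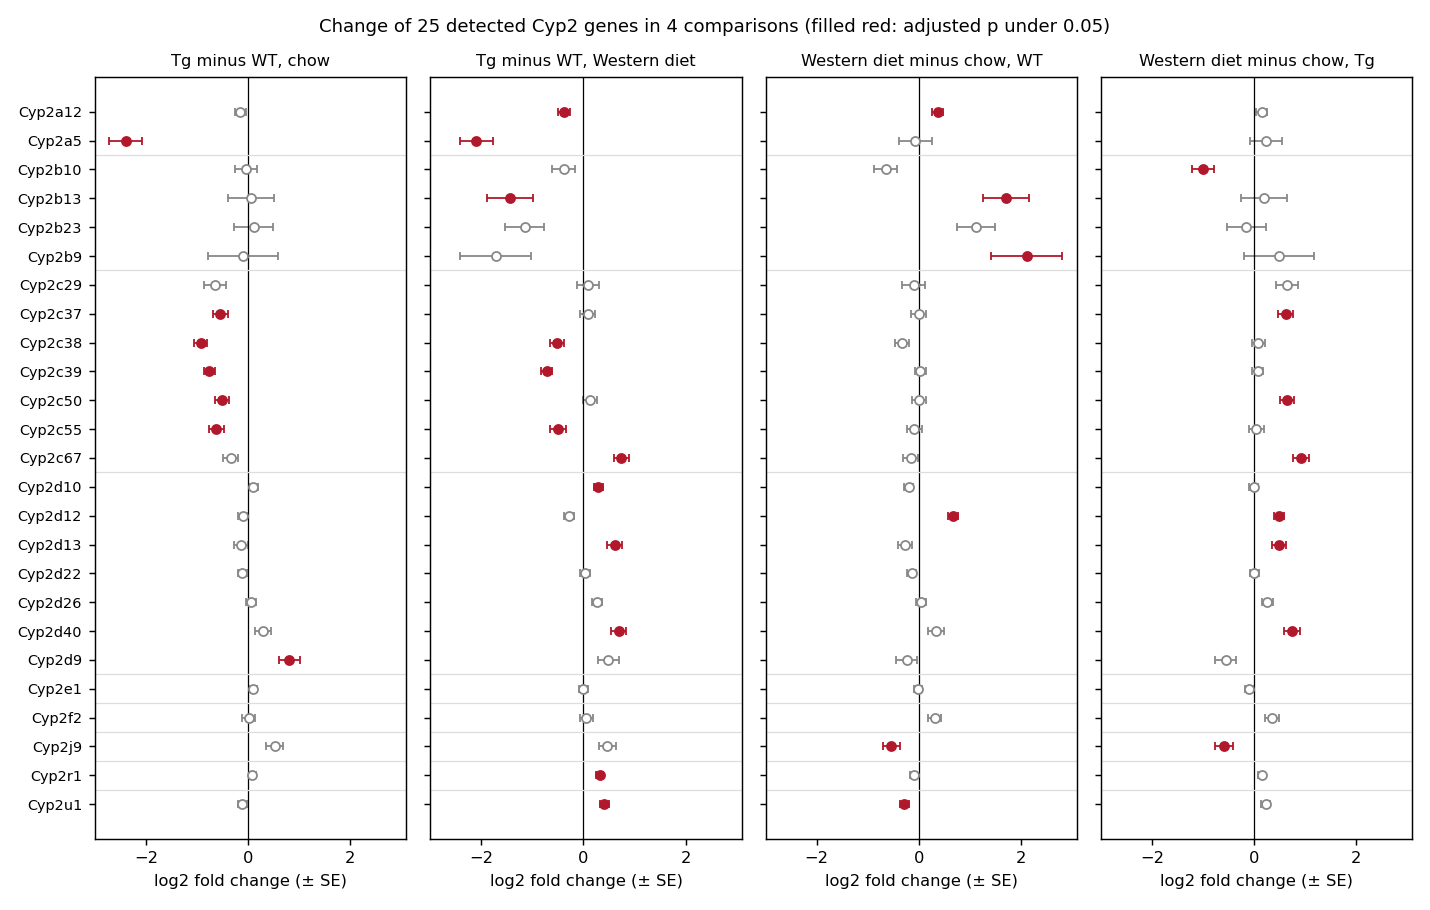
Log2 fold change with its SE (horizontal axis) for the 25 detected Cyp2 genes (vertical axis, ordered by subfamily) in the 4 comparisons of groups, with called genes in filled red. Cyp2a5 lies at -2.40 and -2.10 in the genotype panels, and Cyp2b9 and Cyp2b13 lie at 2.11 and 1.70 in the panel of diet in WT livers.

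Among the Cyp2a genes, Cyp2a5 was lower in Tg livers on both diets and had the largest genotype change of any member. Cyp2a5 is the mouse coumarin hydroxylase and the counterpart of the human nicotine-oxidising enzyme. On chow it read 11.86, 11.91, 12.47 and 12.34 in the 4 WT livers and 10.12, 10.03, 9.67 and 9.13 in the 4 Tg livers. After the Western diet the signals were 12.04, 12.02, 12.03 and 12.20 in WT and 10.10, 9.78, 8.92 and 11.08 in Tg livers. All 8 Tg values lay below all 8 WT values, and the WT Western diet livers were the tightest of the groups. The log2 fold change was -2.40 ± 0.32 on chow (5.29-fold lower, adjusted p = 0.0001432) and -2.10 ± 0.32 on the Western diet (4.29-fold lower, adjusted p = 0.0002549). The diet itself moved it by -0.07 ± 0.32 in WT and 0.23 ± 0.32 in Tg livers, and neither passed the test.

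Cyp2a12, a steroid hydroxylase that in mice also acts on bile acids, changed less. It rose by 0.37 ± 0.11 with the Western diet in WT livers (mean 12.22 to 12.59, adjusted p = 0.0232) and was lower by a log2 fold change of -0.38 ± 0.11 in Tg than in WT livers on that diet (adjusted p = 0.02467). The first call was lost with median scaling, without WT chow replicate 2 or 4, or without WT Western diet replicate 1 or 3 (0.17 to 0.37, adjusted p 0.05017 to 0.2855). The second was lost in a fit of the 8 arrays alone, without WT Western diet replicate 1 or 3, or without Tg Western diet replicate 1 or 3 (-0.38 to -0.25, adjusted p 0.0513 to 0.0768).

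The 3 Cyp2b genes Cyp2b9, Cyp2b13 and Cyp2b23 read highest on average in WT livers on the Western diet, whereas Cyp2b10 read lower on the Western diet. Cyp2b9 and Cyp2b13 are known as female-predominant P450 genes of mouse liver, and all animals here were male. On chow, Cyp2b9 read 10.75, 7.97, 6.77 and 7.33 in WT and 7.57, 9.06, 7.23 and 8.55 in Tg livers. With Western diet feeding it gave 10.58, 10.18, 10.82 and 9.67 in WT and 10.03, 8.26, 8.65 and 7.43 in Tg livers. The WT Western diet livers were uniformly high, and WT chow replicate 1 read as high as they did, so that the groups overlapped. The rise with diet in WT livers was 2.11 ± 0.69 (adjusted p = 0.04259), and the genotype difference on the Western diet, -1.72 ± 0.69, did not pass (adjusted p = 0.1067) except in a fit of the 8 arrays alone (-1.72, adjusted p = 0.02239) and without WT chow replicate 1.

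On chow, the neighbouring gene Cyp2b13 was high in replicate 1 of WT and in replicates 2 and 4 of Tg livers, which were also the highest of their groups for Cyp2b9. It read 7.93, 6.03, 6.12 and 6.06 in WT and 6.21, 7.05, 6.04 and 7.06 in Tg livers on chow. Livers of the Western diet groups gave 8.10, 8.72, 8.76 and 7.36 in WT and 7.82, 6.42, 6.94 and 6.00 in Tg livers. Replicate 1 of WT chow and replicate 1 of Tg Western diet were again the highest of their groups, and the other chow livers, apart from Tg replicates 2 and 4, lay near background. It rose by 1.70 ± 0.45 with diet in WT livers (3.25-fold, adjusted p = 0.01382) and was lower in Tg than in WT livers on the Western diet (-1.44 ± 0.45, adjusted p = 0.03784). The changes of Cyp2b23 had the same signs, 1.12 ± 0.38 and -1.15 ± 0.38, and missed the threshold (adjusted p = 0.05057 and 0.05121).

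Without WT chow replicate 1 the rise in WT livers was 2.96 for Cyp2b9, 2.16 for Cyp2b13 and 1.51 for Cyp2b23 (adjusted p = 0.000733, 0.0008885 and 0.003888). Without that liver Cyp2b9 and Cyp2b23 were also called lower in Tg livers on the Western diet (-1.72 and -1.15, adjusted p = 0.01922 and 0.01446), and the interaction was called for Cyp2b13 and Cyp2b23 (-1.96 and -1.66, adjusted p = 0.0381 and 0.03798). The Cyp2b9 call was lost without filter, in a fit of the 8 arrays alone, and without WT chow replicate 2, 3 or 4, WT Western diet replicate 1, 2 or 3 or Tg Western diet replicate 2 (1.63 to 2.15, adjusted p 0.05133 to 0.141). The rise of Cyp2b13 with diet kept its call in every alternative run that tested the gene (adjusted p at most 0.04981). Its genotype call was lost with an offset of 16, without filter, and without WT Western diet replicate 1, 2 or 3 or Tg Western diet replicate 2, 3 or 4 (-1.88 to -1.18, adjusted p 0.05221 to 0.1164). Both changes of Cyp2b23 were called with median scaling, with the replicate block and with replicates 1 and 2 against 3 and 4 as a term, and that by genotype also in a fit of the 8 arrays alone. They were also called without WT chow replicate 1, WT Western diet replicate 4 or Tg Western diet replicate 1 and, for 1 of the comparisons each, without WT chow replicate 3 or Tg Western diet replicate 4 (1.12 to 1.51 and -1.45 to -1.15).

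Matrix marker sums were high in the same WT group, at 7659 to 8237, and 6569 in WT chow replicate 1 against 4311 to 4971 in its group mates. In Tg Western diet replicate 1, the highest of its group for Cyp2b9, the sum was 4969, the lowest of its group. In WT chow replicate 1 the macrophage sum (1478) and the sum of endothelial markers (2170) were the lowest of its group. Among 11 tested matrix markers 9 rose with diet in WT livers, as 10.7% of all genes did. On the Western diet 8 of them were lower in Tg than in WT livers, against 8.49% of all genes. Among 12 macrophage markers 9 rose and 1 fell with diet in WT livers. The part of these other cell types in the Cyp2b values was not tested.

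Cyp2b10, the classical target of CAR and of phenobarbital, was lower on the Western diet. It read 7.16, 6.53, 7.17 and 7.85 in Tg chow livers and 6.34, 6.07, 6.18 and 6.12 in Tg Western diet livers. The groups did not overlap, and the Western diet livers lay near background. The log2 fold change was -1.0 ± 0.22 (at least 2.00-fold lower, adjusted p = 0.009204). It kept its call in every alternative run that tested the gene. In WT livers, 7.77, 6.67, 7.13 and 7.31 on chow stood against 6.56, 6.70, 6.52 and 6.51 on the Western diet, a log2 fold change of -0.65 ± 0.22 (adjusted p = 0.05116). That value was called with the authors' deposited log2 table, median scaling, an offset of 16, the 8 arrays alone or the replicate block, and without WT chow replicate 2, Tg chow replicate 2 or Tg chow replicate 4 (-0.89 to -0.64).

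**Figure D3:**
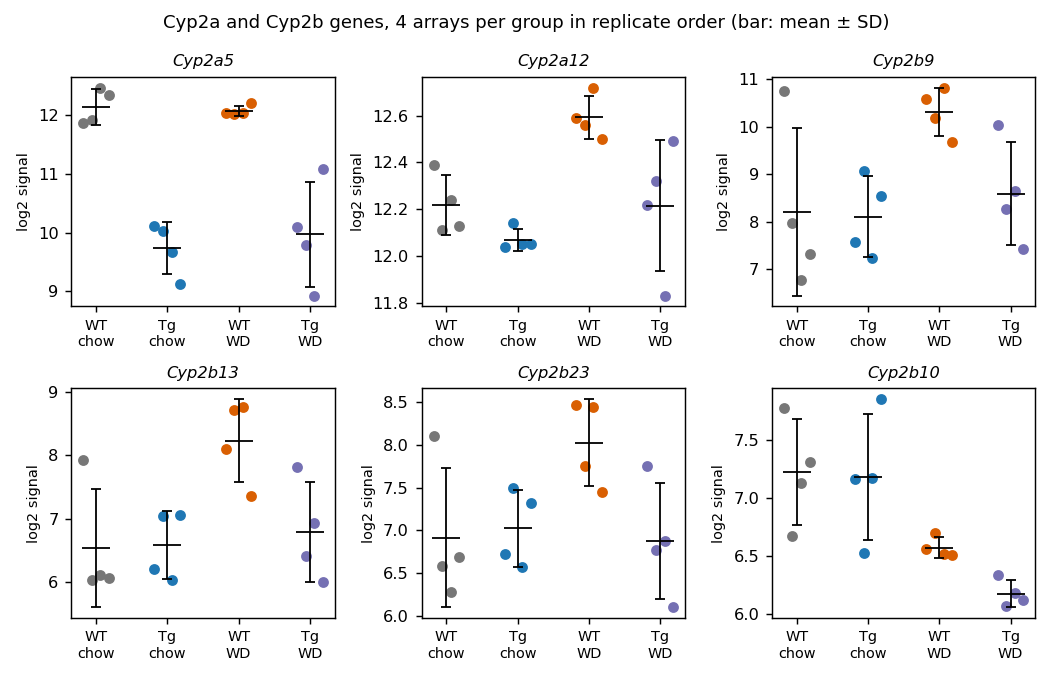
Log2 signal (vertical axes) of Cyp2a and Cyp2b genes in the 4 groups, 1 point per array in replicate order with the group mean and SD. All Tg points of Cyp2a5 are below all WT points, and WT chow replicate 1 stands at 10.75 for Cyp2b9 and 7.93 for Cyp2b13.

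The Cyp2c genes gave most of the decreases in Tg livers on chow, with 5 of 7 lower and 0 higher. Cyp2c enzymes include epoxygenases and hydroxylases of arachidonic acid, and Cyp2c39 also oxidises retinoic acid. Cyp2c38 read 7.27, 7.28, 7.15 and 6.96 in WT chow and 6.16, 6.45, 6.28 and 6.07 in Tg chow livers. Western diet livers read 6.54, 6.91, 6.85 and 7.04 in WT and 6.10, 6.05, 6.54 and 6.58 in Tg livers. The groups were apart on chow, with the Tg livers at background, and overlapped slightly on the Western diet. The log2 fold change was -0.93 ± 0.13 on chow (at least 1.90-fold lower, adjusted p = 0.0003453) and -0.52 ± 0.13 on the Western diet (adjusted p = 0.01406). The Western diet call was lost without Tg Western diet replicate 1 or 2 (-0.44 and -0.43, adjusted p = 0.05102 and 0.05231).

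Its neighbour Cyp2c39 gave nearly equal genotype differences on the 2 diets. It read 7.10, 6.84, 6.83 and 7.15 in WT and 6.34, 6.41, 6.12 and 6.03 in Tg livers on chow. After the Western diet the signals were 7.05, 6.88, 7.0 and 7.12 in WT and 6.52, 6.11, 6.19 and 6.36 in Tg livers. The genotypes did not overlap on either diet. The Tg means, 6.22 on chow and 6.30 on the Western diet, lay near background, where signals level off. The near-equal differences and their interaction therefore cannot show whether the genotype effect was equal on both diets. The log2 fold change was -0.76 ± 0.11 on chow (at least 1.69-fold lower, adjusted p = 0.0003116) and -0.72 ± 0.11 on the Western diet (1.64-fold lower, adjusted p = 0.00025), with an interaction of 0.04 ± 0.15. Together with Cyp2a5 and Cyp2c55, these were the 4 members called lower on both diets, as 2.04% of all genes were. Cyp2c55 passed the filter only through its WT groups, and the Tg means of Cyp2c38 and Cyp2c39 lay near the filter level. The place of these genes in the count thus rests in part on the WT signals that the calls also use.

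Cyp2c55, an arachidonic acid hydroxylase strongly induced through CAR and PXR, was lower in Tg livers on chow (-0.62 ± 0.15, adjusted p = 0.01503) and on the Western diet (-0.50 ± 0.15, adjusted p = 0.03103). Both Tg group means, 6.20 and 6.24, lay at background. The chow call was lost in a fit of the 8 arrays alone or without WT chow replicate 3 (-0.62 to -0.54, adjusted p 0.05002 to 0.05704). The Western diet call was lost without WT Western diet replicate 1 or 2 or Tg Western diet replicate 2, 3 or 4 (-0.49 to -0.41, adjusted p 0.06437 to 0.1093).

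Cyp2c37 and Cyp2c50, both arachidonic acid oxidases, were lower in Tg than in WT livers on chow. Within Tg livers they rose with the Western diet. Cyp2c50 read 12.55, 12.29, 12.30 and 11.94 in WT and 11.99, 11.81, 11.75 and 11.47 in Tg livers on chow. With Western diet feeding it gave 11.88, 12.31, 12.38 and 12.54 in WT and 12.51, 12.40, 12.23 and 12.48 in Tg livers. The Tg chow livers were low as a group, although replicate 1 (11.99) lay above WT chow replicate 4 and WT Western diet replicate 1. The diet change in Tg livers was 0.65 ± 0.14 for Cyp2c50 (adjusted p = 0.009204) and 0.62 ± 0.15 for Cyp2c37 (mean 12.24 to 12.87, adjusted p = 0.0125), and both kept their calls in every alternative run.

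On chow the genotype change was -0.51 ± 0.14 for Cyp2c50 and -0.54 ± 0.15 for Cyp2c37 (adjusted p = 0.03332 and 0.02812). On the Western diet it was 0.13 ± 0.14 and 0.08 ± 0.15, and neither passed (adjusted p = 0.621 and 0.7717). Both chow calls were lost in a fit of the 8 arrays alone, without WT chow replicate 1 or 3, or without Tg chow replicate 2, 3 or 4, and that of Cyp2c50 also without filter, with the replicate block or without WT chow replicate 2. In the settings that ended the calls the changes were -0.56 to -0.43 for Cyp2c37 and -0.53 to -0.42 for Cyp2c50 (adjusted p 0.05068 to 0.09109 and 0.05094 to 0.1048). The interaction, 0.62 ± 0.21 for Cyp2c37 and 0.64 ± 0.20 for Cyp2c50, did not pass (adjusted p = 0.0954 and 0.08108). It was called for both without WT chow replicate 4, for Cyp2c50 without WT Western diet replicate 4 and for Cyp2c37 with median scaling (0.73 to 0.81).

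Cyp2c67 had the largest of the 3 called differences in genotype effect between the diets, while the larger differences of Cyp2b9, Cyp2b13 and Cyp2b23 (-1.62, -1.50 and -1.27) did not pass. It read 11.37, 11.65, 11.34 and 11.59 in WT and 11.37, 11.46, 11.14 and 10.59 in Tg livers on chow. Livers of the Western diet groups gave 11.15, 11.36, 11.35 and 11.43 in WT and 12.22, 11.85, 12.02 and 12.15 in Tg livers. The Tg Western diet livers stood above all 12 others. Tg livers were higher by 0.74 ± 0.15 on the Western diet (1.67-fold, adjusted p = 0.002492) and stood at -0.34 ± 0.15 on chow (adjusted p = 0.1467). The interaction was 1.08 ± 0.21 (adjusted p = 0.006655), and the diet change was 0.92 ± 0.15 in Tg (adjusted p = 0.001163) and -0.16 ± 0.15 in WT livers. The 3 calls held in every alternative run, and with median scaling the chow difference was called too (-0.54, adjusted p = 0.02932).

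Cyp2c29, an abundant hepatic Cyp2c gene, read 8.72 to 9.36 in WT and 8.0 to 8.55 in Tg livers on chow. The groups did not overlap, and the log2 fold change of -0.65 ± 0.22 did not pass (adjusted p = 0.06829). It was called with median scaling, in a fit of the 8 arrays alone, and without WT Western diet replicate 1 (-0.81 to -0.65). In Tg livers its diet change was 0.64 ± 0.22 (adjusted p = 0.07617), called in a fit of the 8 arrays alone and without WT Western diet replicate 1 or Tg Western diet replicate 3 (0.64 to 0.76).

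**Figure D4:**
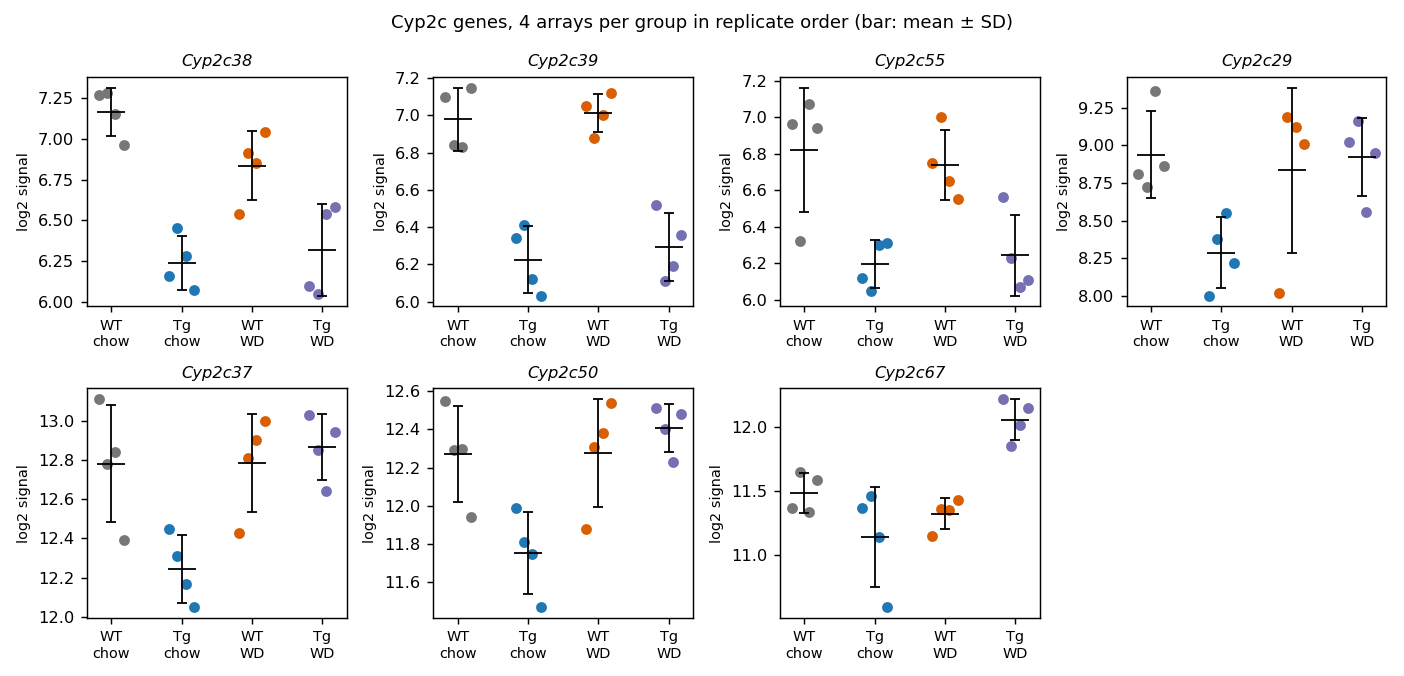
Log2 signal (vertical axes) of Cyp2c genes in the 4 groups, 1 point per array in replicate order with the group mean and SD. Cyp2c38, Cyp2c39 and Cyp2c55 are low in both Tg groups, Cyp2c37 and Cyp2c50 in Tg chow livers, and Cyp2c67 is highest in Tg Western diet livers, where all 4 points lie at 11.85 or above.

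The Cyp2d genes were higher in Tg livers wherever a genotype difference was called, with 1 of 7 on chow and 3 of 7 on the Western diet, except that Cyp2d12 (-0.29 ± 0.10 on the Western diet, adjusted p = 0.06872) was called lower with median scaling, with the replicate block, in a fit of the 8 arrays alone and without Tg chow replicate 3 (-0.36 to -0.29). The family's human counterpart oxidises many drugs. Cyp2d9, a male-predominant steroid hydroxylase of mouse liver, read 14.04, 13.88, 13.30 and 13.42 in WT and 14.49, 14.47, 14.60 and 14.32 in Tg livers on chow. The groups did not overlap, and the log2 fold change was 0.81 ± 0.20 (1.76-fold, adjusted p = 0.01966). On the Western diet 12.99, 13.13, 13.48 and 14.07 stood against 13.74, 14.01, 14.20 and 13.68, which overlapped, and the change of 0.49 ± 0.20 did not pass (adjusted p = 0.1205). The chow call was lost without WT chow replicate 3 (0.69, adjusted p = 0.07002), and the Western diet change was called without WT Western diet replicate 4 (0.71, adjusted p = 0.01244).

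Cyp2d40 and Cyp2d13 were highest in Tg livers on the Western diet. Cyp2d40 read 10.67, 10.37, 10.08 and 9.98 in WT and 10.67, 10.58, 10.55 and 10.45 in Tg livers on chow. Western diet livers read 10.37, 10.59, 10.69 and 10.81 in WT and 11.66, 11.45, 11.10 and 11.01 in Tg livers. The Tg Western diet livers lay above all others. The change was 0.69 ± 0.15 by genotype on the Western diet (adjusted p = 0.004825) and 0.74 ± 0.15 by diet in Tg livers (adjusted p = 0.00548), and both calls held in every alternative run. Within replicates 1 and 2 the genotype difference was 1.07, and within replicates 3 and 4 it was 0.31.

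Cyp2d13, which RefSeq lists as a transcribed pseudogene, read 8.16, 8.38, 8.45 and 7.97 in WT and 8.20, 8.25, 7.92 and 8.04 in Tg livers on chow. After the Western diet the signals were 7.70, 7.99, 7.84 and 8.37 in WT and 8.52, 8.54, 8.46 and 8.81 in Tg livers. The genotypes overlapped on chow and were apart on the Western diet. The log2 fold change by genotype was -0.14 ± 0.14 on chow and 0.61 ± 0.14 on the Western diet (adjusted p = 0.00534), with an interaction of 0.75 ± 0.19 (adjusted p = 0.03147). The interaction call was lost on leaving out any of 8 arrays, WT chow replicate 2 or 3, Tg chow replicate 3 or 4, WT Western diet replicate 1, 2 or 3 or Tg Western diet replicate 4 (0.65 to 0.75, adjusted p 0.05859 to 0.07534). Its diet change in Tg livers, 0.48 ± 0.14 (adjusted p = 0.03406), was lost without filter and without Tg chow replicate 1, 3 or 4 or Tg Western diet replicate 1, 2 or 4 (0.40 to 0.51, adjusted p 0.0512 to 0.1058).

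Cyp2d12 rose with the Western diet in both genotypes. It read 6.23, 5.99, 5.99 and 6.22 in WT chow and 6.79, 6.96, 6.70 and 6.67 in WT Western diet livers. In Tg livers it read 5.99, 6.10, 5.77 and 6.19 on chow and 6.6, 6.54, 6.26 and 6.55 on the Western diet. Chow livers were at background in both genotypes and did not overlap with the livers of the Western diet. The rise was 0.67 ± 0.10 in WT (at least 1.59-fold, adjusted p = 0.0002297) and 0.48 ± 0.10 in Tg livers (at least 1.39-fold, adjusted p = 0.008051). Both calls held in every alternative run that tested the gene. The difference between these rises, -0.19 ± 0.15, did not pass (adjusted p = 0.5023).

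Cyp2d10 was higher in Tg than in WT livers on the Western diet by 0.29 ± 0.09 (mean 12.91 to 13.19, adjusted p = 0.03094). This call was lost without WT Western diet replicate 1, 2 or 3 or Tg Western diet replicate 1, 2 or 3 (0.26 to 0.30, adjusted p 0.05174 to 0.08595). Cyp2d26 and Cyp2d22 were called in none of the comparisons, although Cyp2d26 was called in a fit of the 8 Western diet arrays alone (0.27, adjusted p = 0.01064). For Cyp2d22, the Cyp2d gene closest in function to the human drug-metabolising enzyme, the changes ran from -0.14 to 0.03, and the 95% intervals of the genotype change were -0.30 to 0.08 on chow and -0.16 to 0.22 on the Western diet. With median scaling Cyp2d22 and Cyp2d10 were called lower by diet in WT livers (-0.34 and -0.47, adjusted p = 0.0334 and 0.002422).

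**Figure D5:**
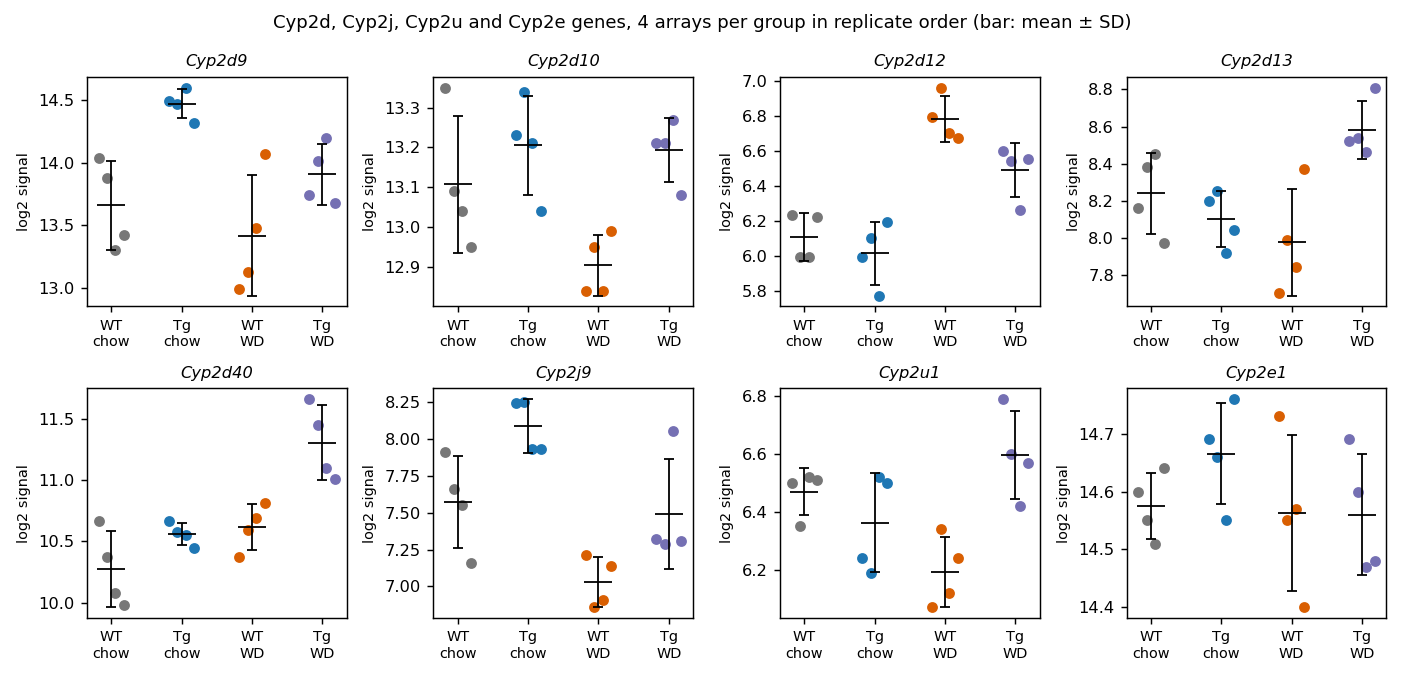
Log2 signal (vertical axes, each with its own range) of Cyp2d, Cyp2j, Cyp2u and Cyp2e genes in the 4 groups, 1 point per array in replicate order with the group mean and SD. Cyp2d12 is higher on the Western diet in both genotypes, Cyp2d40 and Cyp2d13 are highest in Tg Western diet livers, and Cyp2e1 stays between 14.40 and 14.76.

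Of the single-copy subfamilies, Cyp2e1 and Cyp2f2 were not called in any comparison. Cyp2e1, which oxidises ethanol and acetaminophen in pericentral hepatocytes, read 14.40 to 14.76 over all 16 livers and ranked between 4 and 32 of all rows on each array. The 95% intervals of its genotype change were -0.07 to 0.25 on chow and -0.17 to 0.16 on the Western diet. Its signal lay near the top of the range (the hepatocyte marker Apoc3 read up to 14.83). Whether signals level off there was not tested. Cyp2f2, which activates naphthalene and is periportal in liver, changed by 0.31 ± 0.13 and 0.35 ± 0.13 with diet in WT and Tg livers (adjusted p = 0.1026 and 0.0899). These were called without WT Western diet replicate 1 in WT livers (0.40) and in a fit of the 8 arrays alone in Tg livers (0.35).

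Cyp2j9, a Cyp2j gene whose enzyme acts on arachidonic acid, fell with the Western diet in both genotypes. It read 7.91, 7.66, 7.55 and 7.16 on chow and 7.21, 6.86, 6.91 and 7.14 on the Western diet in WT livers. In Tg livers it read 8.24, 8.25, 7.93 and 7.93 on chow and 7.32, 7.29, 8.05 and 7.31 on the Western diet. Tg Western diet replicate 3 stood with the chow livers, and in each genotype the diets overlapped, while on each diet all Tg livers lay above all WT livers. The log2 fold change by diet was -0.54 ± 0.17 in WT (adjusted p = 0.03669) and -0.59 ± 0.17 in Tg livers (adjusted p = 0.0375). Both calls were lost with median scaling and without filter, the first also without WT chow replicate 1, 2 or 3 or WT Western diet replicate 2 or 3 (-0.55 to -0.43), the second without Tg chow replicate 1 or 2 or Tg Western diet replicate 1, 2 or 4 (-0.59 to -0.52). The genotype change of 0.52 ± 0.17 on chow and 0.47 ± 0.17 on the Western diet did not pass (adjusted p = 0.06616 and 0.07787), and the first was called without WT chow replicate 1 or Tg Western diet replicate 3 (0.52 to 0.63).

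Cyp2u1 and Cyp2r1 gave small differences near the filter. Cyp2u1, a fatty acid hydroxylase, read 6.50, 6.35, 6.52 and 6.51 in WT and 6.24, 6.19, 6.52 and 6.50 in Tg livers on chow. With Western diet feeding it gave 6.07, 6.34, 6.12 and 6.24 in WT and 6.79, 6.6, 6.42 and 6.57 in Tg livers. The genotypes were apart on the Western diet, where the WT livers lay at background. The genotype change there was 0.41 ± 0.09 (at least 1.32-fold, adjusted p = 0.007104) and the interaction 0.51 ± 0.13 (adjusted p = 0.03281), while the diet change in WT livers was -0.28 ± 0.09 (adjusted p = 0.04929).

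The genotype call of Cyp2u1 held in every alternative run that tested the gene. Its interaction call was lost with the replicate block and without any of 8 arrays, WT chow replicate 3, Tg chow replicate 1 or 2, WT Western diet replicate 1 or 3 or Tg Western diet replicate 1, 2 or 4 (0.45 to 0.52, adjusted p 0.05347 to 0.07695). Its diet call was lost without filter, with the replicate block, with replicates 1 and 2 against 3 and 4 as a term, and without any of 9 arrays, WT chow replicate 1, 3 or 4, Tg chow replicate 1, WT Western diet replicate 1, 3 or 4 or Tg Western diet replicate 2 or 4 (-0.29 to -0.24, adjusted p 0.05138 to 0.1385). Cyp2r1, a vitamin D hydroxylase of liver, was higher in Tg livers on the Western diet by 0.32 ± 0.07 (mean 6.15 to 6.47, at least 1.25-fold, adjusted p = 0.004132). This call held in every alternative run that tested the gene.

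The low signals of the first 2 replicates of each group were higher than those of the other two, with a mean 5th percentile per array of 58.3 against 53.6. Split into replicates 1 and 2 or replicates 3 and 4, all 36 calls of the 5 comparisons kept their sign in either subset. The calls were made on these same arrays, and each change is the mean over both subsets. The shared signs are therefore no independent support for the calls. For Cyp2a5 the chow difference was -1.81 and -3.0 in these subsets, and for Cyp2b9 the diet change in WT livers was 1.02 and 3.20.

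Genes that work with P450 enzymes were read beside the family. Of 6 tested genes for electron supply and heme, 3 were lower in Tg livers on chow, Alas1, the first enzyme of heme synthesis (-1.28 ± 0.20, adjusted p = 0.000599), Cyb5r3, a cytochrome b5 reductase (-0.65 ± 0.17), and Pgrmc1, a heme-binding P450 partner (-0.46 ± 0.13). On the Western diet 0 of the 6 were called by genotype, and the change of Alas1 was -0.42 ± 0.20 (adjusted p = 0.1779). In Tg livers 3 rose with diet, Alas1 (0.72 ± 0.20), Cyb5r3 (0.66 ± 0.17) and Cyb5b (0.57 ± 0.14), and in WT livers 0 were called. Of all genes 5.42% were lower in Tg livers on chow, and 5.06% rose with diet in Tg livers. The list medians were -0.33, -0.31, 0.09 and 0.34 in the order genotype on chow, genotype on Western diet, diet in WT and diet in Tg livers.

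Transcripts of the nuclear receptors and other regulators of these genes gave 1 call among 9 tested genes in the 4 comparisons. This was Esr1, the estrogen receptor alpha gene, lower with diet in WT livers (-0.39 ± 0.12, adjusted p = 0.03923). Nr1i3, which encodes CAR, changed by 0.27 ± 0.14 and 0.14 ± 0.14 by genotype on the 2 diets and by -0.26 ± 0.14 and -0.39 ± 0.14 by diet in WT and Tg livers, and none passed. Of 9 tested CAR and PXR target genes outside the P450 family, 3 were lower in Tg livers on chow and 3 on the Western diet, and 0 were higher. Of all genes 5.42% were lower on chow and 8.49% on the Western diet. Aldh1a1, a retinal dehydrogenase, fell by 1.10 on chow (log2 fold change -1.10 ± 0.13, adjusted p = 3.33e-05) and by 0.67 on the Western diet (-0.67 ± 0.13, adjusted p = 0.001772), and Abcc3, a bile acid and conjugate exporter, gave -0.82 ± 0.23 and -0.87 ± 0.23. Aldh1a7 was the third on chow (-0.51 ± 0.14) and Gstm3 the third on the Western diet (-0.56 ± 0.14).

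Among 5 tested Cyp1 and Cyp3 genes 0 were called in any of the comparisons by limma, with changes of Cyp3a11 between -0.36 and 0.21. Of 6 tested partners in eicosanoid metabolism, Ephx1, the microsomal epoxide hydrolase, was lower in Tg livers on chow (-0.47 ± 0.14) and on the Western diet (-1.08 ± 0.14, adjusted p = 5.71e-05). Ephx2, the soluble epoxide hydrolase that acts on epoxides made by Cyp2c enzymes, was higher in Tg livers on the Western diet (0.46 ± 0.12) and lower with diet in WT livers (-0.48 ± 0.12). Hpgd, which inactivates prostaglandins, was lower in Tg livers on chow (-0.54 ± 0.13) and not called on the Western diet (0.09 ± 0.13). It rose with diet in Tg livers (0.51 ± 0.13), and its interaction was called (0.63 ± 0.18, adjusted p = 0.04819). With diet, Ephx1 also fell in Tg livers (-0.59 ± 0.14) and Alox5ap rose in WT livers (0.42 ± 0.12).

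By zone of the liver lobule, 5 of 12 pericentral genes were lower and 0 higher in Tg livers on chow, with a median of -0.44. Of all genes 5.42% were lower there. The called genes were Aldh1b1 (-1.99 ± 0.29), Slc13a3 (-0.83 ± 0.17), Rgn (-0.64 ± 0.14), Oat (-0.56 ± 0.11) and Rhbg (-0.47 ± 0.13). The others, not called, were Glul (-0.71), Gulo (-0.41), Slc1a2 (-0.31), Lgr5 (-0.23), Tbx3 (-0.12), Cyp1a2 (-0.05) and Axin2 (0.09). On the Western diet 3 of the 12 were lower, against 8.49% of all genes, and the median was 0.04. Of 9 periportal genes 3 were higher and 0 lower in Tg livers on each diet, with medians of 0.06 and -0.03. Of all genes 4.54% were higher on chow and 6.51% on the Western diet. The 3 were not the same on both diets. On chow they were Apoa4 (1.56 ± 0.25), Cdh1 (1.22 ± 0.19) and Ctsc (0.49 ± 0.10). On the Western diet they were Pck1 (1.27 ± 0.26), Cdh1 (1.11 ± 0.19) and Ctsc (0.46 ± 0.10), and Apoa4 stood at -0.21 ± 0.25. No statement on zones follows from Cyp2e1 and Cyp2f2, pericentral and periportal members, which were not called.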

How the data were processed

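Total liver RNA of 16 mice (250 ng each) was labelled with biotin and hybridised to Illumina arrays, per the labels' protocols. The authors deposited a linear scanner intensity for each of 25697 rows per array, without detection values or control probes. They also deposited a table of log2 values, with the scaling not given in the sources used here. The table and the quantile-normalized log2 intensities differed by at most 0.063. The log2 table chose each gene's row and set the filter, and served as an alternative source of values. Named rows took their symbol from the platform annotation, and a gene whose several rows held the same value was 1 measurement.

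Intensities were corrected by normexp (offset 50), quantile-normalized and put on a log2 scale with limma 3.58.1 (R 4.3.3, data.table version 1.17.8). Lowering of folds by the offset is strongest at low signal. One limma fit (lmFit, eBayes) gave a mean to each of 4 groups, with 12 residual degrees of freedom, and p-values were adjusted by Benjamini-Hochberg over 7789 genes. Precision is limited by the number of arrays. Members and gene lists were chosen with earlier results of these data known, so no test over a list was made. Every detected member is named, and the 4 called members of largest change in each comparison are given by array. Of each list, counts and up to 4 called genes are given (5 for the pericentral list, the fifth named after its value was seen). Alternatives were the authors' log2 table, median scaling, offset 16, no background correction, other filters, averaged rows, the 8 arrays compared, the replicate number as a block, and leaving out each array. Promoter windows came from RefSeq (GRCm38.p6), and 1 further motif search is not reported here. The files name no genome build, and probe sequences were not used here.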

Additional observations from a re-analysis of the deposited data

Results flagged for a closer look

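Among 100 sets of 4 arrays (25 members in 4 groups), 8 had an array far from its 3 group mates, where chance gives about 5%. Cyp2b13 stood at 7.93 in WT chow replicate 1 against 6.03 to 6.12 in the rest of the group. Cyp2j9 stood at 8.05 in Tg Western diet replicate 3 against 7.29 to 7.32, and Cyp2c29 at 8.02 in WT Western diet replicate 1 against 9.01 to 9.19. Cyp2a5 read 12.20 and Cyp2d22 read 12.16 in WT Western diet replicate 4, above group mates at 12.02 to 12.04 and 11.99 to 12.00. Cyp2d12 read 6.26 in Tg Western diet replicate 3 against 6.54 to 6.6. Cyp2u1 read 6.35 in WT chow replicate 2 against 6.50 to 6.52, and Cyp2a12 read 12.14 in Tg chow replicate 2 against 12.04 to 12.05.

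The genotype effect differed between diets for 3 members by the interaction term. The effect on the Western diet minus that on chow was 1.08 for Cyp2c67 (adjusted p = 0.006655), 0.75 for Cyp2d13 (adjusted p = 0.03147) and 0.51 for Cyp2u1 (adjusted p = 0.03281).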

How the results depend on the processing

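No value of a called member changed sign under any alternative run. With the filter at the upper 25% of rows, which left 15 members, 4 and 6 were called for genotype on chow and on the Western diet, and 2 and 5 for diet in WT and in Tg livers. The interaction then gave 2, as it did with the replicate block. Members of lower signal, among them Cyp2b10, Cyp2b13, Cyp2d12, Cyp2r1 and Cyp2u1, were not tested with the filter at the upper 25%. Without a filter, diet in WT livers called 3. Leaving out each array in turn gave 3 to 8 members for genotype on chow, 8 to 14 on the Western diet, 2 to 7 for diet in WT livers, 6 to 10 in Tg livers and 1 to 5 for the interaction. For diet in WT livers, the share of members called fell below that of all genes with the filter at the upper 25%. It did so too without WT chow replicate 3 or 4, WT Western diet replicate 3 or Tg Western diet replicate 2. For the interaction it did so without Tg Western diet replicate 4. In all other runs the members' share was above that of all genes.

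The replicate number as a block gave 6, 14, 7 and 8 members for the same 4 comparisons of groups. Of 24 same-numbered pairs of arrays 9 had deviations correlated above 0.1 (range -0.207 to 0.24), and 6 of 16 arrays correlated best with their own number, so the numbers were not taken to pair the animals. Over single members and settings 3011 values kept their side of the threshold, 108 lost a call and 56 gained a call.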

Other observations

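The Cyp4 genes, whose enzymes hydroxylate fatty acids at the chain end, were read beside the Cyp2 family. Of 11 tested Cyp4 genes, 5 were higher and 2 lower in Tg than in WT livers on the Western diet, with a median log2 fold change of 0.44 against 0.01 for all genes. Of all genes 6.51% were higher and 8.49% lower there. Cyp4a12b and Cyp4a12a, male-predominant genes in mouse, were higher there by 2.17 ± 0.44 and 1.89 ± 0.42 (limma, adjusted p = 0.002778 and 0.005558). With the Western diet in WT livers 4 of the 11 Cyp4 genes were lower and 1 higher. Among the lower were Cyp4a12a (-1.53 ± 0.42) and the PPAR alpha target Cyp4a14 (-1.27 ± 0.18). Of all genes 8.05% were lower and 10.7% higher in that comparison. Cyp4a transcripts are close copies, and whether their probes read each other was not tested.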
